A study of Mus musculus with 5 samples.

Results

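Class I and class II cytokine receptor genes were examined in Tregs, regulatory CD4 T cells defined by Foxp3 that hold immune responses in check. The set holds 10 genes, taken by symbol from the 24084 genes of the count table. They are the class I chains Il4ra, Il21r, Il6ra, Il6st and Il27ra and the class II chains Il10ra, Il10rb, Ifngr1, Ifngr2 and Ifnar1. All 10 passed the filter on low counts. The Tregs came from Foxp3-DTR/GFP mice aged 13 days, in 3 libraries from lymph nodes that drain the skin and 2 from skin. Both groups belong to this line, in which Foxp3-expressing cells carry the diphtheria toxin receptor and a green fluorescent reporter, and no other allele or agent is named. The number of animals and cells behind a library, like the gates of the sort, is not given in the sources used here; hence p-values cover only the spread among these 5 libraries, part of which may be technical.

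Class I receptors bind helical cytokines through an extracellular domain with a conserved WSXWS motif, and class II receptors bind interferons and the interleukin-10 family. Neither class has a kinase of its own. A ligand joins 2 chains or more, the attached Janus kinases (JAK1, JAK2, JAK3 and TYK2) phosphorylate the chains, and STAT factors dock, are phosphorylated and enter the nucleus. Several chains are shared: the common gamma chain (Il2rg) by the receptors for interleukins 4 and 21, gp130 (Il6st) by those for interleukins 6 and 27, and Il10rb by those for interleukins 10 and 22. In Tregs, such receptors are known to pass signals that sustain suppression, as with interleukin 10 through STAT3, and signals that can weaken it.

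The members lie on 7 chromosomes of mm10, some of them side by side (GENCODE M21 coordinates). Il4ra (chromosome 7, 125552120 to 125579474) and Il21r (125603429 to 125633570) are neighbours with a gap of 23954 bp. Il10rb (chromosome 16, 91406164 to 91425834), Ifnar1 (91485238 to 91507441) and Ifngr2 (91547072 to 91565623) form a row on chromosome 16 with Ifnar2, the partner of Ifnar1, which ends 574 bp before Il10rb. The remaining 5 are the lone members on their chromosomes: Il6ra on chromosome 3 (89864059 to 89913196), Il27ra on chromosome 8 (84030294 to 84042589), Il10ra on chromosome 9 (45253837 to 45269149), Ifngr1 on chromosome 10 (19591949 to 19610229) and Il6st on chromosome 13 (112464070 to 112510086). Of these, Ifngr1 lies 11768 bp before Il22ra2 and Il6st lies 9811 bp before Il31ra, both receptor genes outside the set.

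Promoters are shown for 4 members: the neighbours Il4ra and Il21r, which differed in skin library 2, Il6st, which was near 0 in the same library as Il21r, and Ifnar1, the member with the STAT palindrome TTCNNNGAA. Each runs 5′ to 3′ from 250 bases before to 50 bases after the start (RefSeq, GRCm38.p6). Capitals mark matches on either strand to TTCNNNGAA, to the wider TTCNNNNGAA, to the GC box GGGCGG and to the CCAAT box, and no matches overlap in these 4.
Il4ra (chr7:125552021-125552320, plus strand): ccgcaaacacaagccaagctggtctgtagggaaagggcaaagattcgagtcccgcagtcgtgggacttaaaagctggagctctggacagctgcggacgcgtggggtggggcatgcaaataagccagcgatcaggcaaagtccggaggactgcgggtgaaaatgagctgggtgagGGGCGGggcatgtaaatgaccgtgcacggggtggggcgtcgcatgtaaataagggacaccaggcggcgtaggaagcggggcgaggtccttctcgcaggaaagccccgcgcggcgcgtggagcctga
Il21r (chr7:125603179-125603478, plus strand): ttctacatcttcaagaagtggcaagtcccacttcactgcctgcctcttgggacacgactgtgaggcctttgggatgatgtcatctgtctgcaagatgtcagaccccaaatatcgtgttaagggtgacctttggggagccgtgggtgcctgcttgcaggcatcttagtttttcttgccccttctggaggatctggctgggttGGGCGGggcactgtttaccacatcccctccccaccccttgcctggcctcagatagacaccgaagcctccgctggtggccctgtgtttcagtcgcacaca
Il6st (chr13:112463820-112464119, plus strand): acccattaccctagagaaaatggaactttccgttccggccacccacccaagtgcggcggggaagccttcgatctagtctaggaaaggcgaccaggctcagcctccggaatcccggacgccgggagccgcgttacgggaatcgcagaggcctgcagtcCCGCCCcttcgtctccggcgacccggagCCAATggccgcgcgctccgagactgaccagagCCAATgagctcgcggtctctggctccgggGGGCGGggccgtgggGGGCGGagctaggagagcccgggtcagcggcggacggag
Ifnar1 (chr16:91484965-91485264, plus strand): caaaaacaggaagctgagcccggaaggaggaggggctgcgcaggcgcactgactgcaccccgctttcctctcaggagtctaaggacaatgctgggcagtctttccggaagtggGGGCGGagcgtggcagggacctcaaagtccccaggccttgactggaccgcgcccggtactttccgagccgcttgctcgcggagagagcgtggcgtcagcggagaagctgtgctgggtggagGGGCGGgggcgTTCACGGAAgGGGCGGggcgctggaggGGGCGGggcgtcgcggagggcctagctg

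Of the 10 members, 7 had a promoter in that table; those of Il10ra, Il10rb and Il27ra are not shown. TTCNNNGAA stood in 1 of the 7 (Ifnar1) and in 8.3% of all 32851 promoters, and TTCNNNNGAA in 1 of the 7 (Ifngr2) and in 6.95% of all. A GC box stood in 6 of the 7 against 35.7% of all, and a CCAAT box in 3 against 37.4%. Il21r had the lowest GC content of the 7, at 56%, with 7 CpG pairs, and its neighbour Il4ra had 62% with 25. The median over all promoters was 52.7% with 7 CpG pairs. Il6st, at 68.3% GC and 33 CpG pairs, had the highest CpG number of the 7. A link between promoter composition and the values in skin library 2 was not tested. A match describes these letters and is not evidence of binding.

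Library facts that bear on the members are these. Gene counts ranged from 10468795 to 14595018 per library, and skin libraries held counts for 9894 and 9192 genes against 12173 to 12540 in lymph node. Foxp3 was at 89.6, 95.01 and 99.8 CPM (counts divided by the TMM-scaled library size) in lymph node and at 78.0 and 117.7 CPM in skin. The summed CPM of 12 T cell and Treg markers ranged from 14744 to 17226 in lymph node and from 12662 to 14432 in skin. This sum joins opposite changes. Both skin values lay below the lymph node range for 7 of the 12 and above it for 2 (33.5% and 16.8% of all genes). In edgeR Cd5 and Lck were lower and Ctla4 and Ikzf2 higher (5.3% and 2.4% of all genes). The summed CPM of 17 myeloid markers ranged from 139.7 to 243 in lymph node and from 3181 to 3591 in skin. Of these markers, 14 were tested, 7 passed the threshold in edgeR and all 7 were higher in skin, as were 2.4% of all genes tested. Lyz2, for instance, had 377 and 447 CPM in skin, and Itgax had no count in any library. Summed keratinocyte markers ranged from 12.8 to 21.1 CPM in lymph node and from 179 to 207 CPM in skin. That sum, too, joins opposite changes. Of 7 keratinocyte markers tested, both skin values lay above the lymph node range for 4 and below it for 2 (16.8% and 33.5% of all genes). In edgeR 1 of the 7 was higher and 0 lower (2.4% and 5.3% of all genes). Summed B cell markers ranged from 82.2 to 229 CPM in lymph node and from 22.1 to 72.3 CPM in skin. Macrophages and dendritic cells also express several of the members, and the part of such cells in the values below was not tested.

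Transcripts of all 10 receptors were detected in the Treg libraries of both tissues, with Il21r, Il6st and Il10rb near 0 in skin library 2. No member passed the threshold between the tissues. By edgeR's quasi-likelihood test 0 of 10 passed an adjusted p of 0.05, against 7.7% of all 11437 genes tested. At an unadjusted p under 0.05 in edgeR 0 were higher and 0 lower, against 10.1% and 19.4% of all genes. DESeq2 and limma-voom also called 0 of the 10, where they called 28.5% and 19.5% of all genes. With 10 members, 0 calls is near the adjusted share in edgeR and under the other shares, and it is not read as a result about the set. The fitted log2 fold change (skin over lymph node) was positive for 4 members and negative for 6, with a median of -0.34 beside -0.21 over all genes tested. In bulk libraries such as these, fewer cells that express a gene and less of its RNA per cell cannot be told apart. The groups did not overlap for 5 members: skin was higher in 1 (Il6ra), as in 16.8% of all genes, and lower in 4 (Il21r, Il6st, Il27ra and Il10rb), as in 33.5% of all genes.

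**Figure D1:**
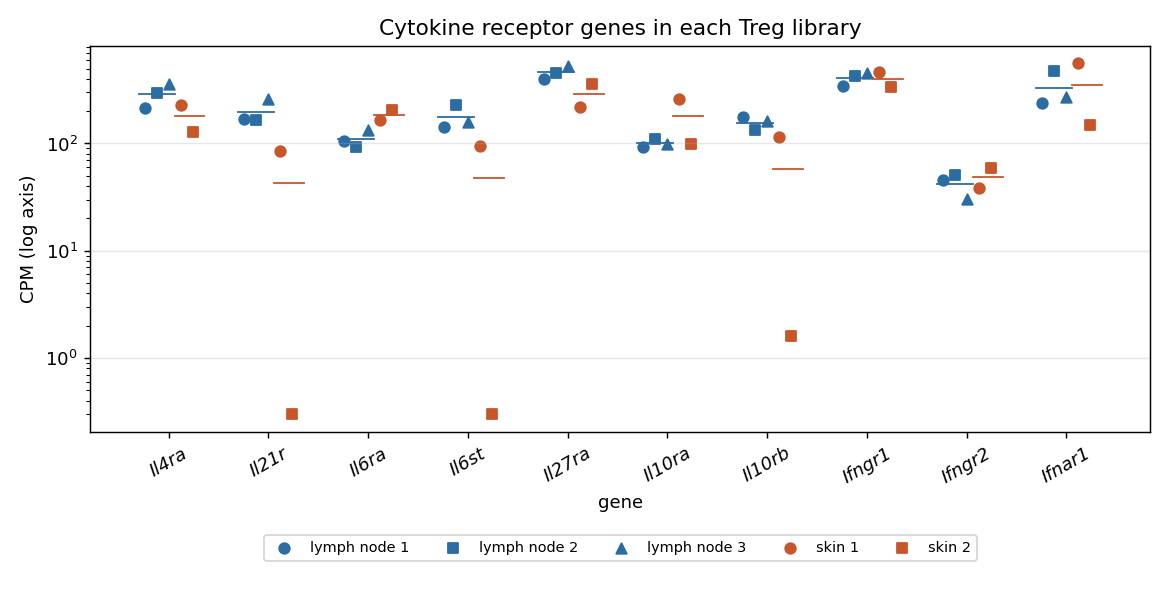
CPM (log axis) of the 10 receptor genes, with 1 point per library (blue, lymph node; orange, skin) and a line at each group's mean. Il21r, Il6st and Il10rb lie at 0.2996, 0.2996 and 1.60 CPM in skin library 2, and every other point lies above 30 CPM.

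The receptor for interleukin 4, which acts mainly through STAT6, is built on Il4ra. It was at 216.5, 298 and 357 CPM in the lymph node libraries and at 231 and 127 CPM in the skin libraries. Skin library 1 lay within the lymph node range and skin library 2 below it. The log2 fold change was -0.70 (95% interval -1.66 to 0.25, edgeR adjusted p = 0.293), and it was -1.20 without skin library 1 and -0.34 without skin library 2.

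Il21r, whose ligand interleukin 21 comes from follicular helper T cells and signals through STAT3, was at 169, 166 and 261 CPM in lymph node Tregs. It was at 85.3 CPM in skin library 1 and at 0.2996 CPM, from 3 counts, in skin library 2. Both skin values were thus below all lymph node values, but the skin libraries differed from each other by a ratio of 285 (95% counting interval 97.1 to 1383). The log2 fold change was -2.21 with an interval from -6.59 to 2.16 (edgeR adjusted p = 0.474), and limma-voom put it at -5.17. Il4ra, its neighbour on chromosome 7, differed between the skin libraries by a ratio of 1.82 only.

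Il6ra encodes the chain that binds interleukin 6, a cytokine that turns T cells toward the Th17 fate. It was at 105, 93.7 and 132 CPM in lymph node and at 165 and 206 CPM in skin Tregs. It is the member in which both skin values exceeded all lymph node values. The log2 fold change of 0.75 had an interval from -0.01 to 1.51 and did not pass the threshold (edgeR adjusted p = 0.177).

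Il6st encodes gp130, which carries the signal of interleukins 6 and 27 to STAT3. Its lymph node values were 144, 229 and 160 CPM. In skin it was at 95.1 CPM in library 1 and at 0.2996 CPM, again from 3 counts, in library 2. The ratio of the skin libraries was 317 (95% counting interval 108 to 1542), and the log2 fold change of -1.90 had an interval from -6.27 to 2.48 (edgeR adjusted p = 0.546). It moved to -9.17 without skin library 1, to -0.91 without skin library 2 and to -4.92 in limma-voom. Il6ra and Il6st, chains of 1 receptor, thus stood on opposite sides of their lymph node values in both skin libraries.

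Il27ra, the specific chain for interleukin 27, had the highest mean CPM of the members in lymph node, at 397, 452 and 528 CPM, although Ifnar1 exceeded it in lymph node library 2. Skin Tregs had 219 and 357 CPM, both below the lymph node range. The log2 fold change was -0.67 with an interval from -1.41 to 0.07 (edgeR adjusted p = 0.208), the narrowest interval among the 4 members that lay below. Without skin library 1 the value was -0.37, and without skin library 2 it was -1.07.

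For interleukin 10, the suppressive cytokine that Tregs both make and sense, the chains differed in pattern. Il10ra, the ligand-specific chain, was at 93.5, 110.3 and 98.0 CPM in lymph node, a ratio of 1.18 between highest and lowest. Skin library 2 matched this range with 99.5 CPM, and skin library 1 lay above it with 262 CPM. The log2 fold change was 0.84 (interval -0.32 to 2.003, edgeR adjusted p = 0.297), and it was -0.022 without skin library 1 and 1.37 without skin library 2. The summed CPM of the myeloid markers was 3181 in skin library 1 and 3591 in skin library 2, and their part in the Il10ra values was not tested.

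Il10rb, the shared accessory chain, was at 176, 134 and 161 CPM in lymph node, at 114 CPM in skin library 1 and at 1.60 CPM, from 16 counts, in skin library 2. Both skin values were below the lymph node range, and they differed by a ratio of 71.5 (95% counting interval 43.9 to 125.5). Its log2 fold change was -1.44 (interval -5.06 to 2.19, edgeR adjusted p = 0.586). It became -6.61 without skin library 1, -0.46 without skin library 2 and -3.43 in limma-voom.

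Among the interferon receptors, Ifngr1, which binds interferon gamma, was the member with the closest group means. It was at 345, 425 and 449 CPM in lymph node and at 466 and 339 CPM in skin. The groups overlapped, and the log2 fold change was -0.01 with an interval from -0.63 to 0.60 (edgeR adjusted p = 0.978). The sign of so small a value turned with RLE scaling (0.02) and without skin library 2 (0.19).

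Ifngr2, the signalling partner of Ifngr1 that brings JAK2, was the least abundant member by CPM in lymph node Tregs. It was at 45.7, 50.6 and 30.2 CPM there and at 38.7 and 58.9 CPM in skin, with overlapping groups (log2 fold change 0.21, interval -1.23 to 1.66, edgeR adjusted p = 0.861). The value was 0.48 without skin library 1 and -0.13 without skin library 2.

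Ifnar1, a chain of the type I interferon receptor that brings TYK2, varied most among the lymph node libraries, at 240.4, 471 and 272 CPM (a ratio of 1.96). Skin library 1 was above all of them at 557 CPM and skin library 2 below all of them at 147 CPM. The skin libraries thus lay on either side of lymph node, and the log2 fold change was 0.10 (interval -1.44 to 1.65, edgeR adjusted p = 0.939). It was -1.16 without skin library 1 and 0.76 without skin library 2.

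**Figure D2:**
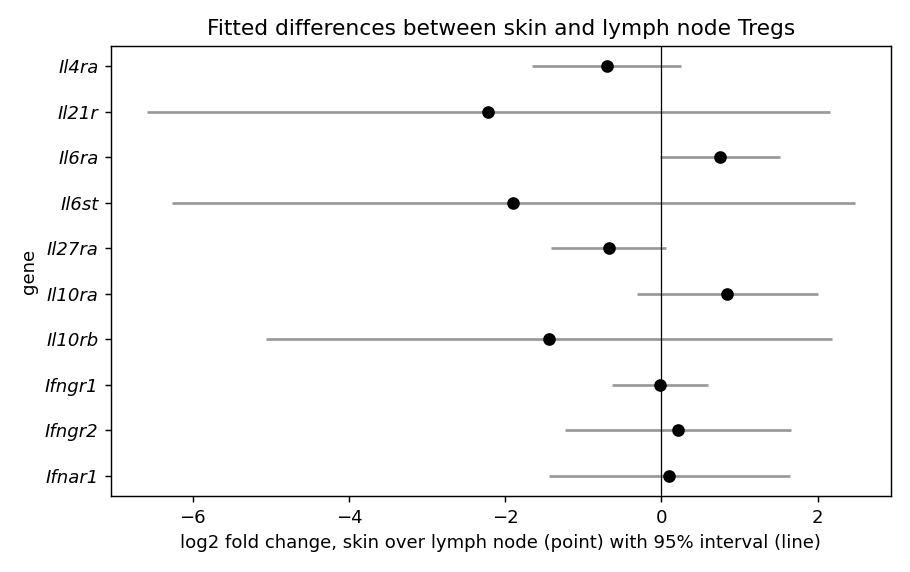
Log2 fold change of skin over lymph node Tregs (points) with the 95% interval of the edgeR fit (lines) for the 10 receptor genes. All 10 intervals include 0; that of Ifngr1 runs from -0.63 to 0.60, and those of Il21r, Il6st and Il10rb span more than 7 log2 units.

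The difference between the skin libraries sets how the members read. Of 4678 genes with a lymph node mean of at least 42.2 CPM, the level of Ifngr2, the share under 2 CPM was 10.7% for skin library 2, 5.24% for skin library 1 and 0.107% for any of the lymph node libraries. Among the 10 members these numbers were 3, 0 and 0. The 4678 genes were chosen by their lymph node mean, which itself keeps the lymph node share low. Only the shares of the 2 skin libraries can be set against each other. A gap of more than 2-fold between the skin libraries was found for 5 members and for 47.2% of the 4678 genes. When skin library 1 was left out, edgeR called 5 members, Il6ra higher and Il4ra, Il21r, Il6st and Il10rb lower, in a fit that called 48.7% of all genes. When skin library 2 was left out it called 3, Il10ra higher and Il21r and Il27ra lower, in a fit that called 39.2%. The lone skin library is assumed there to vary like the lymph node libraries. The log2 fold change of Il21r was -9.33 without skin library 1, where it rests on 3 skin counts, and -1.23 without skin library 2. Both fits use the same 3 lymph node libraries.

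**Figure D3:**
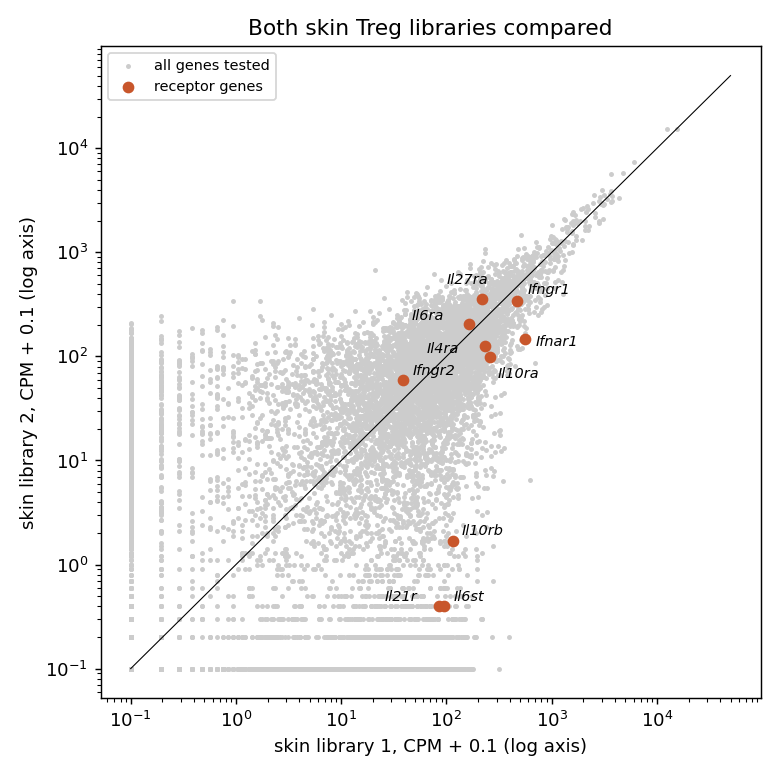
CPM + 0.1 (log axes) in skin library 1 (horizontal) and skin library 2 (vertical) for all genes tested (grey) and the 10 receptor genes (orange), with a line at equal values. Il21r, Il6st and Il10rb lie far below the line, with ratios of 285, 317 and 71.5, and the other 7 lie near it, with ratios from 0.613 (Il27ra) to 3.78 (Ifnar1).

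Levels of different genes were compared per kilobase of exon. In lymph node Tregs Ifngr1 (192 ± 25.9 CPM per kb, SD, n = 3) and Il27ra (172 ± 24.7) stood highest, and their libraries overlapped. Il10rb (84.8 ± 11.4), Ifnar1 (83.9 ± 32.0) and Il21r (78.1 ± 21.4) came next and overlapped with one another, and Il4ra (55.3 ± 13.5) overlapped with Ifnar1 and Il21r. Il10ra (28.8 ± 2.48) lay apart from its neighbours in the order. Il6st (16.2 ± 4.14), Il6ra (12.8 ± 2.29) and Ifngr2 (11.4 ± 2.86) were lowest and overlapped. In both skin libraries Ifngr1 was again the highest, at 220 and 160.3 CPM per kb.

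Partner chains of the same receptor were set side by side per kilobase. Ifngr1 exceeded Ifngr2 in all 5 libraries, by ratios of 13.2, 14.7 and 26.1 in lymph node and 21.1 and 10.1 in skin. For interleukin 10, Il10ra to Il10rb was 0.282, 0.436 and 0.322 in lymph node, so that Il10rb was the higher chain, against 1.21 and 32.9 in the skin libraries. For interleukin 6, Il6ra to Il6st was 0.929, 0.519 and 1.05 in lymph node and 2.21 in skin library 1, and in skin library 2 Il6ra was at 23.8 CPM per kb with Il6st at 0.0273. Il27ra to Il6st was 11.4, 8.12 and 13.6 in lymph node and 9.48 in skin library 1, and in skin library 2 it too rested on the 3 counts of Il6st. Il2rg, the common gamma chain, far exceeded both chains that pair with it: Il4ra to Il2rg ranged from 0.0173 to 0.0306 in lymph node and was 0.0250 and 0.0139 in skin. Il21r to Il2rg ranged from 0.0278 to 0.0464 in lymph node and was 0.0191 in skin library 1 and 6.8e-05 in skin library 2.

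In the type I interferon receptor the skin libraries lay on either side of lymph node. Ifnar2 was at 38.5, 40.6 and 45.0 CPM in lymph node, at 2.43 CPM in skin library 1 and at 194 CPM in skin library 2 (log2 fold change 1.24, edgeR adjusted p = 0.636). Ifnar1 to Ifnar2, per kilobase, was 5.07, 9.42 and 4.91 in lymph node, but 186 in skin library 1 and 0.618 in skin library 2. The chain that was low thus differed between the skin libraries, Ifnar2 in library 1 and, across the small gap on chromosome 16, Il10rb in library 2.

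**Figure D4:**
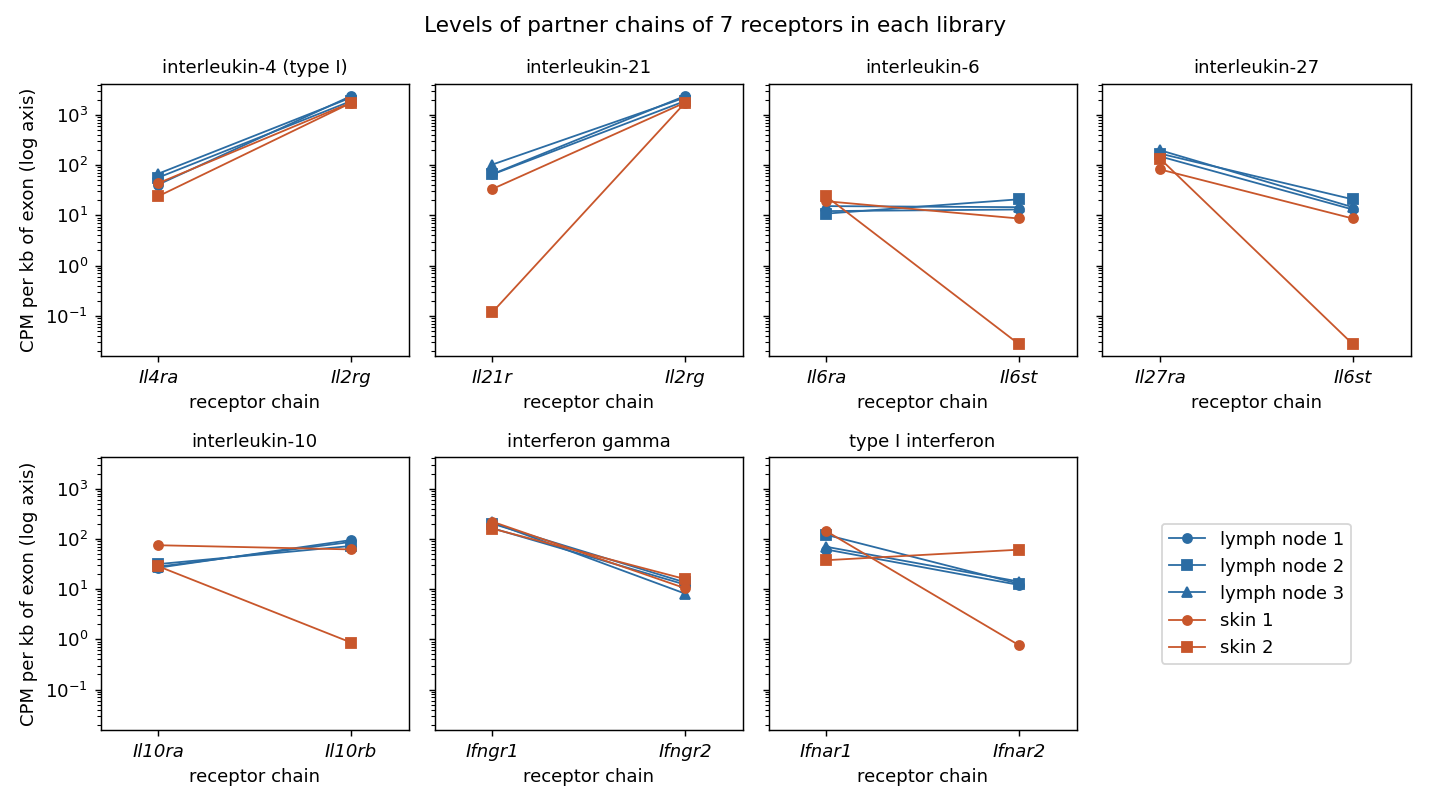
CPM per kb of exon (log axis) of the partner chains of 7 receptors, joined by a line within each library (blue, lymph node; orange, skin). Lines of the interferon gamma receptor run together (ratios from 10.1 to 26.1), whereas for the receptors of interleukins 6, 10, 21 and 27 and of type I interferon the skin libraries differ by more than 10-fold in the ratio.

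The remaining receptor genes of both classes gave no call in edgeR. Of 26 other class I receptors, 14 were tested and 0 passed in edgeR. At an unadjusted p under 0.05, 5 were higher and 0 lower, beside 10.1% and 19.4% of all genes. DESeq2 called 5 higher and limma-voom 2, beside 10.8% and 4.95% of all genes, and neither called any lower. The 5 higher at an unadjusted p under 0.05 in edgeR were Il9r, Il11ra1, Csf2ra, Csf2rb and Lifr. In lymph node Csf2rb and Lifr had no count, and Csf2ra was at 0.421, 1.49 and 0 CPM. In skin Csf2ra was at 13.9 and 28.1 CPM, Csf2rb at 96.6 and 3.59 CPM and Lifr at 1.12 and 15.5 CPM. The part of myeloid cells in these values was not tested. Il2rg, the common gamma chain, was at 3977, 3157 and 3704 CPM in lymph node and at 2938 and 2900.3 CPM in skin, below the lymph node range (log2 fold change -0.31, edgeR adjusted p = 0.282). Il2rb, the beta chain for interleukins 2 and 15, was at 704, 1019 and 873 CPM and at 440 and 867 CPM (log2 fold change -0.41, edgeR adjusted p = 0.514). Il13ra1, which can replace Il2rg as the partner of Il4ra, had no count in 4 libraries and 9.89 CPM in skin library 2. Of 6 other class II receptors only Ifnar2 and Il20rb were tested, and 0 passed in edgeR, at an unadjusted p under 0.05, in DESeq2 or in limma-voom. The remaining 4, Ifnlr1, Il20ra, Il22ra1 and Il22ra2, had no count in any library. Il20rb, a chain for interleukins 19, 20 and 24, was at 0.0702, 2.51 and 5.03 CPM in lymph node and at 24.0 CPM and 0 in skin.

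Downstream of the receptors, 0 of 10 JAK and STAT genes passed in edgeR (7.7% of all genes). At an unadjusted p under 0.05 in edgeR 1 was lower (19.4% of all genes). DESeq2 called 1 lower and limma-voom 0 (17.7% and 14.6% of all genes). Jak1, which serves nearly all of these receptors, was at 625, 651 and 548 CPM in lymph node and 736 and 642 CPM in skin (log2 fold change 0.18, edgeR adjusted p = 0.595). Tyk2 was at 56.7, 111 and 81.1 CPM and at 119 and 260.03 CPM, above the lymph node range in skin (log2 fold change 1.19, edgeR adjusted p = 0.177). Both genes were thus present in every library.

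Stat6, the factor of the interleukin-4 receptor, was at 337, 446 and 486 CPM and at 233 and 243 CPM, both below the lymph node range (log2 fold change -0.83, edgeR adjusted p = 0.0872). Stat3, the factor of gp130, Il10ra and Il21r, was at 134, 115 and 112 CPM and at 123 and 147 CPM, with overlapping groups (log2 fold change 0.16, edgeR adjusted p = 0.777). The skin libraries lay close together for Stat3 and Stat6, but not for all 10 JAK and STAT genes. Stat4 was at 5.24 and 109 CPM and Tyk2 at 119 and 260 CPM in skin libraries 1 and 2.

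**Figure D5:**
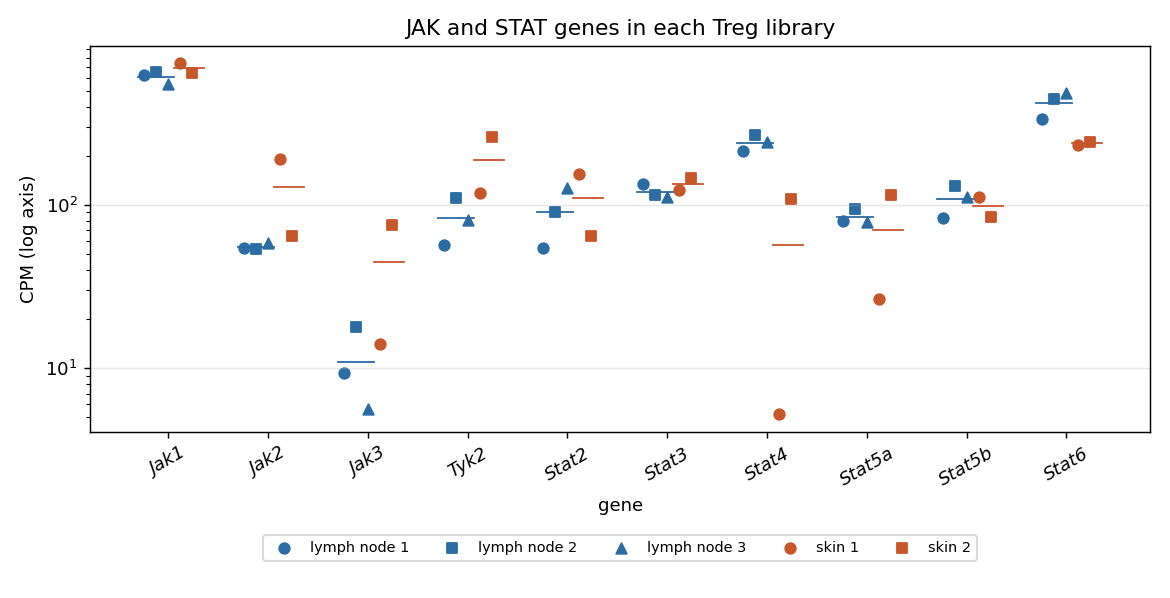
CPM (log axis) of 10 JAK and STAT genes, with 1 point per library (blue, lymph node; orange, skin) and a line at each group's mean. Stat6 lies below the lymph node range in both skin libraries, Jak1 and Stat3 overlap, and Stat4 is at 5.24 CPM in skin library 1 and 109 in skin library 2.

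Among 17 genes of feedback and dephosphorylation, 0 were higher and 1 lower in edgeR, beside 2.4% and 5.3% of all genes. DESeq2 called 2 higher and 4 lower (10.8% and 17.7% of all genes), and limma-voom 1 higher and 2 lower (4.95% and 14.6%). Socs5, a suppressor of cytokine signalling that acts on the interleukin-4 and epidermal growth factor receptors, was at 21.001, 11.7 and 30.2 CPM in lymph node and was without a count in skin. Against a floor of 3 counts over both skin libraries, which covers counting error only, it was at least 148-fold lower (edgeR adjusted p = 0.0463). The edgeR interval of its log2 fold change ran from -15.6 to -6.49. With 0 skin counts, the centre of this interval depends on the small count that edgeR adds. Its lower end lies beyond what this depth can measure. Of all 11437 genes tested, 1306 had no count in either skin library. Socs3, which binds gp130 and is induced by STAT3, was at 19.3, 11.3 and 14.7 CPM and at 16.3 and 17.9 CPM (log2 fold change 0.18, edgeR adjusted p = 0.913). Socs1, the inhibitor of interferon receptors, was at 5.06, 2.59 and 3.33 CPM in lymph node and at 0.655 CPM and 0 in skin (edgeR adjusted p = 0.256).

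Of 20 genes for ligands of these receptors, 10 had no count in any library and 6 were tested. DESeq2 and limma-voom each called 2 higher and 1 lower, beside 10.8% and 17.7% of all genes in DESeq2 and 4.95% and 14.6% in limma-voom. Il10 alone passed in edgeR, where 2.4% of all genes were higher and 5.3% lower. Il10 was at 18.4, 8.62 and 5.78 CPM in lymph node and 284 and 496 CPM in skin (log2 fold change 5.16, edgeR adjusted p = 0.0340). Its receptor chains did not pass, as given above, and the myeloid markers, whose cells can also make interleukin 10, were higher in the same libraries; their part in this rise was not tested.

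Genes known to respond to STAT3 and STAT6 were counted from lists. In the STAT3 list 2 of 12 genes were higher and 0 lower in edgeR (2.4% and 5.3% of all genes). DESeq2 called 4 higher and 1 lower (10.8% and 17.7% of all genes), and limma-voom 3 and 0 (4.95% and 14.6%). The median log2 fold change of this list was 1.8004 beside -0.21 over all genes. In this list 10 values were positive and 2 negative, the lowest at -3.40, beside 5064 and 6373 of all genes tested. Maf, a transcription factor that drives Il10, rose from 112, 65.7 and 104 CPM to 452 and 339 CPM (log2 fold change 2.07, edgeR adjusted p = 0.0440). Hif1a, an oxygen-sensing factor, rose from 150.4, 104 and 66.5 CPM to 427 and 541 CPM (log2 fold change 2.18, edgeR adjusted p = 0.0463). In the STAT6 list 1 of 8 tested genes was higher and 1 lower in edgeR, with a median of 1.20. DESeq2 and limma-voom each called 3 higher and 1 lower in it. The shares of all genes given for the STAT3 list apply here too. Gata3, the type 2 transcription factor, rose from 141, 129 and 149.7 CPM to 385 and 631 CPM (log2 fold change 1.86, edgeR adjusted p = 0.0421). Gfi1, a repressor, was at 7.73, 9.49 and 10.2 CPM against 0 in skin. By the counting floor alone Gfi1 was at least 63.0-fold lower (edgeR adjusted p = 0.0482, interval of the log2 fold change -14.2 to -5.49). This interval has the same limit as that of Socs5. Other pathways also act on these genes, and myeloid cells express Maf and Hif1a.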

How the data were processed

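Messenger RNA of sorted Tregs was sequenced in 3 lymph node and 2 skin libraries. The authors deposited unnormalized whole-number counts per gene symbol, and the submitters' processing notes list HTSeq 0.6.1, TopHat2 2.0.12, Bowtie2 2.1.0.0, CASAVA 1.8.2 and SAMtools 0.1.19.0 with build mm10; the use of strand, like the options and annotation, is not given in the sources used here. Their table's header has names for the 5 value columns but none for the gene symbols, so each name was moved 1 cell to the right. The 5 HTSeq summary rows (reads not placed uniquely, outside genes or ambiguous; genes held 19.3 to 21.7% of all counts) were left out.

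Counts were analysed in R 4.3.3 with edgeR 4.0.16: filterByExpr (minimum count 10), TMM, the quasi-likelihood F test and Benjamini-Hochberg adjustment over all 11437 genes tested, with a threshold of 0.05. SE is the log2 fold change over the square root of F, and 95% intervals use its degrees of freedom. With 2 against 3 libraries the smallest p that exact permutation allows is 0.1, so no such test was run. Alternatives used DESeq2 1.42.0, limma-voom 3.58.1, other scalings and filters, a block on library number, and each library left out. On simulated data the fit missed most of the changes put in when the spread was that of these libraries and recovered most of them at a smaller spread, so a gene that did not pass is not shown to be equal. Counting intervals and floors (3 counts) cover counting error only, since PCR copies carry no molecular identifiers. Levels per kilobase use the union of exons in GENCODE M21 (basic set, GRCm38, which is mm10).

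The members and gene lists were chosen with earlier results of these data known. Named genes are all members, up to 4 called genes by adjusted p from each pathway list or else its 2 most abundant, and Ifnar2, Il2rg, Il13ra1, Jak1, Tyk2, Stat3, Stat6, Socs1, Socs3 and Foxp3. Stat4, Lyz2, Itgax, Cd5, Lck, Ctla4, Ikzf2, Il9r, Il11ra1, Csf2ra, Csf2rb, Lifr and the class II receptors without a count were chosen after their values were seen. A gene and a gene list are not reported here.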

Additional observations from a re-analysis of the deposited data

How the results depend on the processing

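The 10 members gave 0 calls under RLE scaling, no scaling factor, no low-count filter, a minimum count of 50, DESeq2, limma-voom and the replicate block, and from 0 to 5 when 1 library was left out (0 without any lymph node library). Over all genes, 881 calls became 315 without a low-count filter, 1391 with a minimum count of 50, 3262 in DESeq2, 2231 in limma-voom and 21 with the replicate block, and ranged from 0 to 6065 when 1 library was left out; fits without a lymph node library gave 0 calls (2361 to 2485 genes at an unadjusted p under 0.05) and those without a skin library 4904 and 6065. The deviations of same-numbered libraries correlated at -0.04 and -0.03. With 2 skin libraries, whose deviations mirror each other, these values cannot show whether the library numbers pair the libraries. Of 120 refitted log2 fold changes of members, 98 kept their direction and side of the threshold, 8 passed it (each without 1 skin library) and 14 changed sign. For Ifngr1 these were 0.019 (RLE scaling), 0.020 (DESeq2), 0.054 (replicate block), 0.021 and 0.065 (without lymph node library 2 or 3) and 0.19 (without skin library 2), in a range of -0.27 to 0.19 when 1 library was left out. For Ifngr2 they were -0.0091 (replicate block) and -0.13 (without skin library 2; range -0.13 to 0.48), and for Il10ra -0.022 (without skin library 1; range -0.022 to 1.37). For Ifnar1 they were -0.094 (limma-voom), -0.23 (replicate block), -0.078 and -0.013 (without lymph node library 1 or 3) and -1.16 (without skin library 1; range -1.16 to 0.76). None of the 14 was past the threshold, and the cause was not tested. Depth allows a gene without a count up to 0.204 to 0.2996 CPM in a single library, so the values of Il21r and Il6st in skin library 2 lie at that limit.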
